A study of Mus musculus with 8 samples.

Results

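Camk2b and Tiam1 were examined in RNA from whole small intestinal (SI) tissue, as the 2 rows named Camk2b and Tiam1 among the 119 genes of the deposited table. Both were selected on the measured values: the table keeps only genes that passed the authors' DESeq2 comparison on these same 8 libraries, and this pair was chosen by its lower level in the knockout. The direction of change was therefore fixed by the choice, and the levels below are a description without a test. The WT libraries came from wild type C57BL/6 mice, and the Smarcad1-KO (KO) libraries from C57BL/6 mice in which a Vil-Cre transgene had deleted floxed exons of Smarcad1, with 4 libraries in each group. All mice were male according to the study's methods, and age was not given in the sources used here. The Villin promoter drives Cre in the gut epithelium, so muscle, nerve and immune cells of the whole tissue kept an intact gene, and the floxed line descends from 1 targeted embryonic stem cell clone. Whether WT mice carried floxed alleles or Cre was not stated in the sources used here. The labels number the libraries without saying that each came from a separate mouse, so the spread given here may be partly technical.

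Camk2b encodes the beta subunit of calcium/calmodulin-dependent protein kinase II, a serine/threonine kinase that calmodulin switches on when intracellular calcium rises and that can then phosphorylate itself and stay active. It is best known from neurons, where the beta subunit also binds actin filaments. Tiam1 encodes a guanine nucleotide exchange factor that loads the small GTPase Rac with GTP and so acts on actin, cell contacts and migration. The kinase is known to phosphorylate Tiam1, which places the exchange factor downstream of calcium signals, and in the intestine Tiam1 is known as a Wnt-responsive gene of the crypt. The study names Tiam1 among genes raised upon Smarcad1 deletion in its organoid and colon data. Elsewhere the study gives Tiam1 as an example of a gene with decreased expression. Organoid and colon data were not analysed here.

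Camk2b (ENSMUSG00000057897) lies on the minus strand of GRCm38 chromosome 11, and the table gives it a span from 5969644 to 6066362, or 96719 bp. The span equals that of the gene in GENCODE mouse release M21. Tiam1 (ENSMUSG00000002489) lies on the minus strand of chromosome 16 and has a span from 89787111 to 89980080, or 192970 bp, in the table. Release M21 extends Tiam1 to 90143769, so its most distal annotated start site lay outside the measured span. No other annotated gene overlapped either span, among 55450 annotated genes searched. Annotated exons, merged over transcripts, covered 9125 bp of the Camk2b span (9.43%) and 9911 bp of the Tiam1 span (5.14%).

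The promoters of the pair are shown because both genes were listed as lower in KO, and they share little in base composition. The sequences are the 250 bases before each start site that the RefSeq promoter table (GRCm38.p6) gives for these genes, written 5′ to 3′ on the minus strand, which is the coding strand here. The Camk2b window is chr11:6065749-6065998. The table holds a distal Tiam1 window, chr16:89974700-89974949, and a proximal one, chr16:89818353-89818602. Capitals mark matches on either strand to the GC box (GGGCGG) or to CCAAT.
Camk2b: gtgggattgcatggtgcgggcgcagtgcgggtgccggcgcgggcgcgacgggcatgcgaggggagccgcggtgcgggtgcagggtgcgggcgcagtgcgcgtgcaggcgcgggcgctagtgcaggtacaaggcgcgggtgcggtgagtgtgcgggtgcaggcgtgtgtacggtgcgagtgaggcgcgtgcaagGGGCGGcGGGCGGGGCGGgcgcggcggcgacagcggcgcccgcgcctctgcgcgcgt
Tiam1 distal: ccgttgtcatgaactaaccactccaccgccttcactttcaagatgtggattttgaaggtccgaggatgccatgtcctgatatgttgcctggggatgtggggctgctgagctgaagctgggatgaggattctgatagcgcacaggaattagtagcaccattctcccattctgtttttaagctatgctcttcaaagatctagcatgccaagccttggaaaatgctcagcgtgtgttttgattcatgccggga
Tiam1 proximal: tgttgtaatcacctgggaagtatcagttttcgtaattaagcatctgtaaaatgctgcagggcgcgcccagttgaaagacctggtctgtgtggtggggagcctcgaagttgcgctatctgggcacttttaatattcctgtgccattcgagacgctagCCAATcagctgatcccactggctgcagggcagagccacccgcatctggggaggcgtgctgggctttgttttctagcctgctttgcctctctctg

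The Camk2b window was 78.4% G or C with 44 CpG dinucleotides, a higher share of G and C than in 98.1% of 32544 distinct promoters of the same length, whose median was 52.4%. It held 3 GC boxes, starting 57, 50 and 45 bases before the start site, the last 2 sharing 1 base. A GC box was found in 33.0% of all promoters. The Tiam1 windows were near the median, at 48.4% for the distal and 53.2% for the proximal one, with 6 and 9 CpG dinucleotides. The proximal window held 1 CCAAT, a motif found in 33.8% of all promoters, and the distal window held none of the motifs searched. No E-box (CACGTG), cAMP response element (TGACGTCA) or TATA box (TATAAA) was found in the 3 windows, against 6.03%, 1.55% and 12.3% of all promoters. These matches describe the letters only.

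RPKM here is scaled to the mapped reads of a library and to kilobases of genomic span, introns included. The study describes exon counting, so it is not settled whether intronic reads were counted. On that length all 939 values above 0 came to whole reads within 0.05 of a read, and they implied 56981718 to 78026422 mapped reads per library. The targeted gene Smarcad1, a chromatin remodeler, had 0.312 to 0.373 RPKM in WT and 0.209 to 0.276 RPKM in KO, so its groups did not overlap. Of the 119 listed genes, 60 had a lower mean in KO.

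Camk2b had 0.659, 2.62, 3.23 and 1.39 RPKM in WT libraries 1 to 4. In KO libraries 1 to 4 it had 0.382, 0.234, 0.434 and 0.547 RPKM. All 4 KO values lay below all 4 WT values, but the lowest WT library and the highest KO library were only 0.112 RPKM apart. This distance rested on single libraries, being 0.846 RPKM without WT library 1 and 0.225 RPKM without KO library 4. WT libraries averaged 1.98 ± 1.17 RPKM (SD, n = 4) and KO libraries 0.399 ± 0.130 RPKM (SD, n = 4), a KO to WT ratio of 0.202 or a difference of -79.8%. The difference of means, -1.58 RPKM, was larger than the SD of either group. On the log2 scale, which weights the 4 WT libraries more evenly, the difference of mean levels was -2.13 ± 0.58 (SE). In whole tissue, fewer cells that express a gene and less RNA per cell cannot be told apart.

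Tiam1 was measured at a much lower level, with 0.0573, 0.0631, 0.0628 and 0.0522 RPKM in WT libraries 1 to 4. In KO libraries 1 to 4 it had 0.0536, 0.0355, 0.0455 and 0.0402 RPKM. The groups overlapped, because KO library 1 lay above WT library 4, the lowest WT value minus the highest KO value being -0.00137 RPKM, while the other 3 KO libraries lay below every WT library. WT libraries averaged 0.0589 ± 0.00516 RPKM (SD, n = 4) and KO libraries 0.0437 ± 0.00776 RPKM (SD, n = 4). The KO to WT ratio was 0.743, a difference of -25.7%, and the difference on the log2 scale was -0.44 ± 0.14 (SE). The difference of means, -0.0151 RPKM, exceeded both SDs, yet the ranges met at their edges. Without KO library 1 the lowest WT value stood 0.00672 RPKM above the highest KO value, and without WT library 4 it stood 0.00369 RPKM above, so the overlap rested on these libraries.

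**Figure D1:**
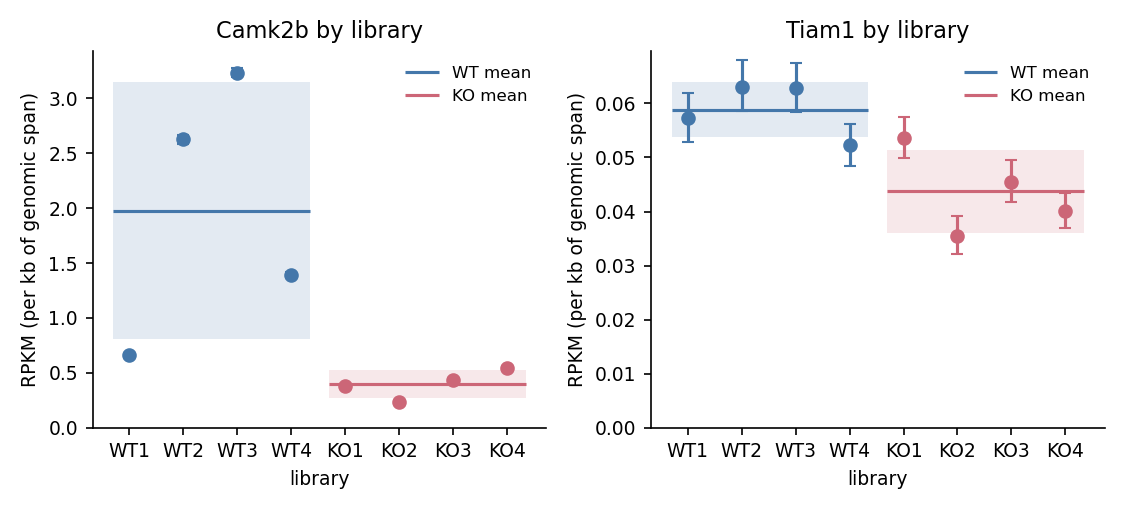
RPKM (per kilobase of genomic span) of Camk2b and Tiam1 in each of the 4 WT and 4 KO libraries, with points for libraries, bars for exact 95% Poisson intervals, lines for group means and bands for 1 SD. Camk2b ranged from 0.659 to 3.23 RPKM in WT and from 0.234 to 0.547 in KO, while the Tiam1 groups met at WT library 4 (0.0522) and KO library 1 (0.0536).

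Thus 1 of the 2 genes, Camk2b, had groups that did not overlap. The same held, with KO below WT, for 27 of the 119 listed genes (22.7%) and so for 27 of the 60 with a lower mean in KO (45.0%). All were selected on the same libraries, so nothing is read from these shares. By ratio, Camk2b was the lowest of the 119 genes. The next, Hist1h2bk, a histone gene whose near-identical copies can share reads, had a ratio of 0.205, with WT values from 0.528 to 3.47 RPKM and KO values from 0.214 to 0.565 RPKM. The gap between these ratios was small beside the WT spread of either gene. Tiam1 stood in the 34th place from the lowest, between Ang4 at 0.740 and St3gal6 at 0.748, and close to the median ratio of 0.726 of the genes lower in KO.

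The pair differed in how far WT libraries spread. The WT coefficient of variation (SD over mean) of Camk2b was 58.9%, the 9th highest of the 119 genes, and its highest WT library was 4.91 times its lowest. That of Tiam1 was 8.76%, in the 111th place, with a highest to lowest ratio of 1.21. Without WT library 1 the Camk2b coefficient was 38.8%, and without WT library 4 that of Tiam1 was 5.35%. The median over the listed genes was 18.4%. In KO, the coefficients were 32.6% for Camk2b and 17.7% for Tiam1, the 10th and 38th highest, with a median of 14.1%. The spread of Camk2b was thus larger in WT than in KO, and that of Tiam1 larger in KO, which was not tested with 4 libraries a group.

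**Figure D2:**
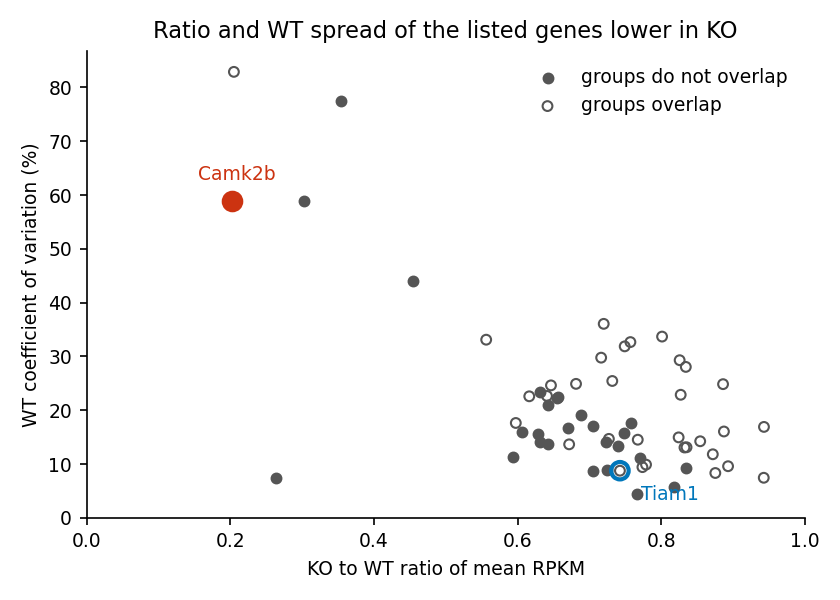
KO to WT ratio of mean RPKM (x axis) against the WT coefficient of variation in percent (y axis) for the 60 listed genes with a lower mean in KO, 1 point per gene, filled where the groups did not overlap. Camk2b had the lowest ratio (0.202) with a coefficient of 58.9%, and Tiam1 lay in the main cloud at 0.743 and 8.76%.

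The depth behind each value shows how much of this spread counting could give. Behind Camk2b stood 3633, 14758, 19781 and 9479 reads in WT libraries 1 to 4. In KO libraries 1 to 4 there were 2732, 1325, 2560 and 4128. Counting alone would give coefficients of 0.920% in WT and 1.97% in KO, so the observed spread was 64.1 and 16.6 times as large. The exact 95% Poisson interval of the lowest WT library, 0.638 to 0.681 RPKM, lay above that of the highest KO library, 0.530 to 0.564 RPKM. Such intervals cover counting error only.

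Behind Tiam1 stood 630, 708, 766 and 709 reads in WT libraries 1 to 4. In KO libraries 1 to 4 there were 764, 402, 535 and 605. Counting alone would give 3.78% in WT and 4.21% in KO, so the observed spread was 2.32 and 4.21 times as large. The Poisson intervals of WT library 4 (0.0485 to 0.0562 RPKM) and KO library 1 (0.0499 to 0.0575 RPKM) covered much of the same range, and the order of these libraries could not be told at this depth.

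Levels can be compared between the genes only per length. Per kilobase of span, mean Camk2b was 33.6 times mean Tiam1 in WT and 9.14 times in KO. With all reads assigned to annotated exons, the same reads would give 21.0 ± 12.4 RPKM on the exonic length for Camk2b in WT and 4.23 ± 1.38 in KO (SD, n = 4 each). For Tiam1 they would give 1.15 ± 0.10 in WT and 0.851 ± 0.151 in KO (SD, n = 4 each). On this scale Camk2b exceeded Tiam1 18.3 times in WT and 4.97 times in KO. Where in the span the reads lay was not analysed here.

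WT libraries 2 and 3 were above WT libraries 1 and 4 for both Camk2b and Tiam1. The same split held in 64 of the 119 genes and the opposite in 5, which was noticed after the values were seen. KO library 2 was the lowest KO library for both genes, as in 35 of the 119. To see the pair apart from such common shifts, each library was divided by the median of its ratios to the geometric mean of all libraries. The median was taken over the listed genes above 0 in every library. The factors were 0.825 and 0.840 for WT libraries 1 and 4, against 0.997 to 1.08 for the other 6 libraries. These factors rest on genes selected for differing between the groups, and they moved the KO minus WT difference of all genes by -0.16 on the log2 scale.

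After this rescaling Camk2b had 0.799, 2.53, 3.11 and 1.66 RPKM in WT libraries 1 to 4, while its KO libraries had 0.234 to 0.545 RPKM. Its WT coefficient of variation was 50.0%, so most of the spread remained, and its ratio was 0.190. Tiam1 had 0.0694, 0.0609, 0.0604 and 0.0622 RPKM in WT libraries 1 to 4. Its KO libraries 1 to 4 had 0.0503, 0.0356, 0.0421 and 0.0400 RPKM. The Tiam1 groups then no longer overlapped, with 0.010 RPKM between them, and the WT order changed, with library 1 the highest. Its ratio was 0.665. Genes with KO entirely below WT went from 27 to 52 under this scaling, while those entirely above stayed at a count of 58.

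**Figure D3:**
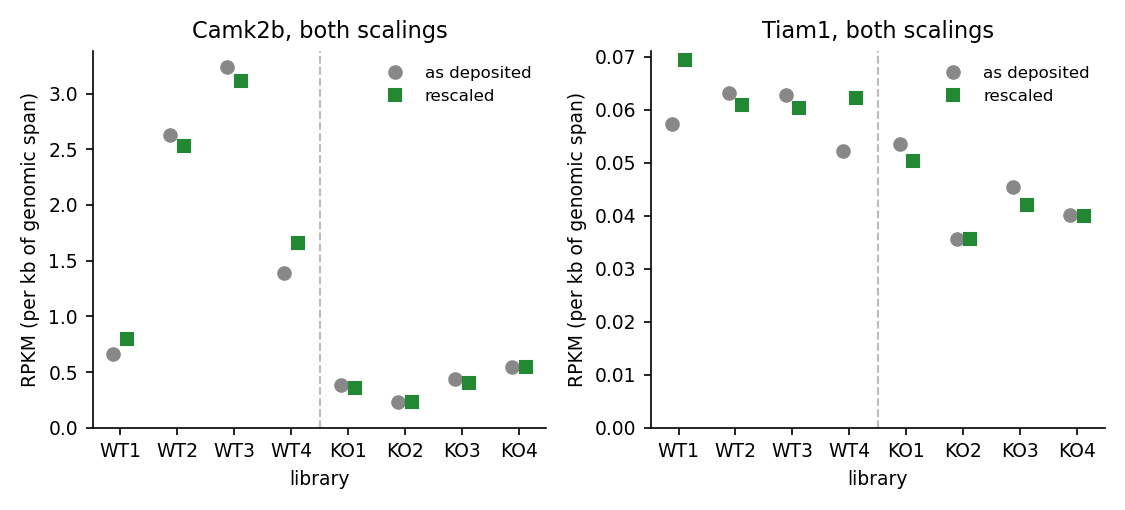
RPKM of Camk2b and Tiam1 in each library as deposited (circles) and after dividing each library by its median ratio (squares). The median was taken over the listed genes above 0 in every library. WT libraries 2 and 3 stayed above 1 and 4 for Camk2b, and for Tiam1 the rescaled WT libraries, 0.0604 to 0.0694, all lay above the KO libraries.

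Listed genes were then ordered by how closely their profile over the 8 libraries followed each member, as the root mean square difference of log2(RPKM + 0.01) after centering each gene. For Camk2b the nearest were Ccdc21 (0.69), which encodes a centrosomal protein, Adm (0.77), the vasoactive peptide adrenomedullin, and Fgfbp3 (0.89), a fibroblast growth factor binding protein. The median over the other listed genes was 1.38. Adm shared the low WT library 1, which was the lowest WT library, ties included, in 57 of the 119 genes. Adm had 1.98, 4.64, 4.25 and 3.36 RPKM in WT libraries 1 to 4 and 1.67 to 2.31 RPKM in KO. Ccdc21 did not share that spread, at 2.26 to 2.65 RPKM in WT and 0.363 to 0.986 RPKM in KO.

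For Tiam1 the nearest profiles were those of Ccng1 (0.088), encoding cyclin G1, Fam73a (0.12) and Ide (0.13), the insulin-degrading enzyme, with a median of 0.48 over the other listed genes. Ccng1, at a far higher level, had 12.2, 13.6, 14.7 and 10.8 RPKM in WT libraries 1 to 4. Its KO libraries 1 to 4 had 12.7, 9.66, 10.9 and 9.40 RPKM, with libraries 1 and 3 inside the WT range. The pair were not each other's nearest profiles: Tiam1 stood in the 34th place for Camk2b, and Camk2b in the 105th for Tiam1, at a difference of 1.09. Likeness is a description over 8 libraries and carries no statement on shared function or control.

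**Figure D4:**
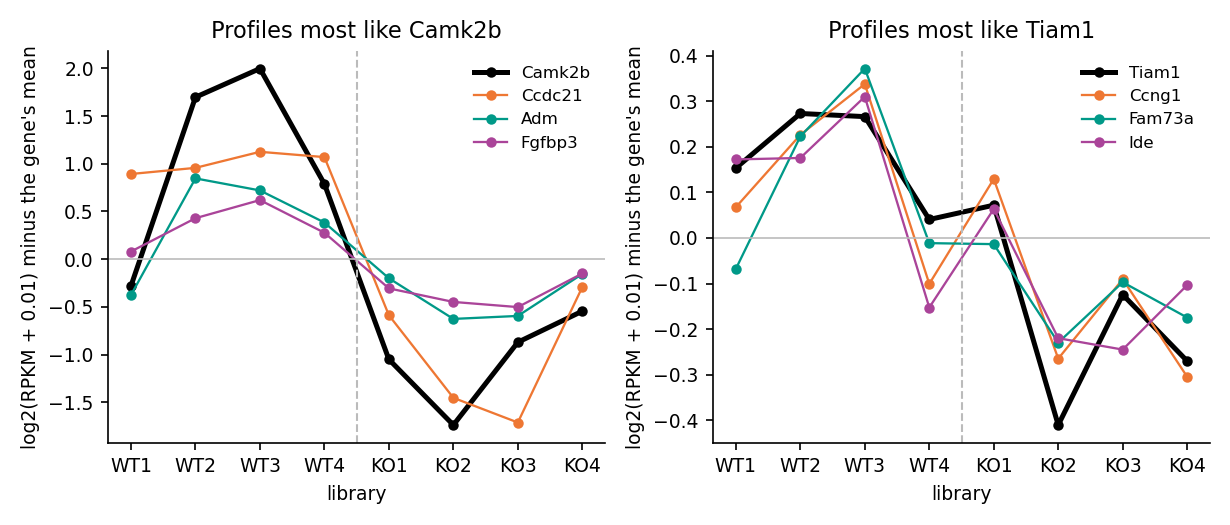
log2(RPKM + 0.01) minus the mean of each gene, by library, for Camk2b and Tiam1 (thick lines) and the 3 listed genes with the most similar profile each. Lines only join the values of 1 gene, the vertical scales differ between the panels, and the dashed line parts WT from KO. Camk2b spanned a wider range than its nearest genes, whereas Ccng1 followed Tiam1 within 0.088 (root mean square).

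Other genes of the pathways were looked up in the table, which lists 119 of 55450 annotated genes (0.215%). How many genes the authors tested is not given in the sources used here, so a share of genes tested cannot be set beside the counts that follow. Of 37 calcium and calmodulin signaling genes, 3 were listed: Camk2b, Adcy8 and P2rx4. Adcy8, an adenylyl cyclase that calmodulin stimulates, had 0.200, 0.221, 0.317 and 0.209 RPKM in WT libraries 1 to 4 and 0.172 to 0.209 RPKM in KO, so its groups overlapped, with a ratio of 0.827. P2rx4, an ATP-gated channel that lets calcium in, was higher in KO without overlap, at 2.28 to 3.05 RPKM in WT and 3.41 to 3.66 RPKM in KO, a ratio of 1.35. The median ratio of these 3 genes was 0.827, which is the ratio of Adcy8, beside 0.943 over all 119. Camk2b was itself chosen for its lower level in KO, so nothing is read from this median.

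Of 39 genes taken here as Rac signaling, 3 were listed: Tiam1, Itga2 and Rtn4r. Itga2, a collagen-binding integrin subunit, had 0.350 to 0.448 RPKM in WT and 0.435 to 0.607 RPKM in KO, with overlap and a ratio of 1.30. Rtn4r, a receptor for myelin proteins, had 0.0928, 0.186, 0.201 and 0.137 RPKM in WT libraries 1 to 4 and 0.256 to 0.371 RPKM in KO, a ratio of 1.97 without overlap. The median ratio of these 3 genes was 1.30. The listed genes of both lists thus lay on either side of 1, and genes outside the table were not analysed here. Both lists were chosen with earlier results of these data known, so their counts and medians say nothing of the pathways as a whole.

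**Figure D5:**
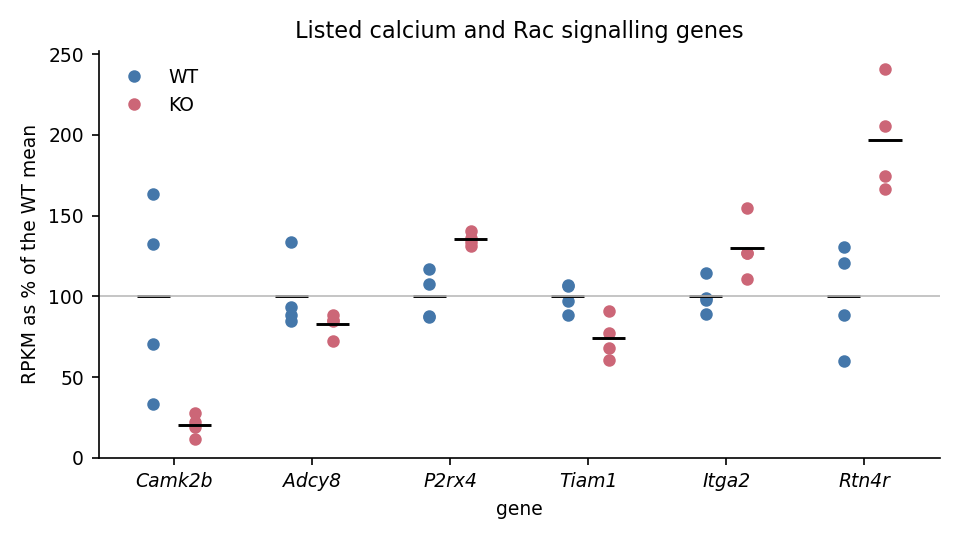
RPKM of the 6 listed calcium and Rac signaling genes in each library, as a percentage of the WT mean of the gene, with points for libraries and black lines for group means. Camk2b, Adcy8 and Tiam1 had a lower mean in KO, and P2rx4, Itga2 and Rtn4r a higher one.

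Markers of cell types were looked up beside these results. None of the 36 marker genes of smooth muscle, enteric neurons, enteric glia, T cells, B cells, enteroendocrine cells and tuft cells was listed, so whether the share of these cells differed was not tested. Of 14 Paneth cell genes 12 were listed, none at 0 in any library. The list was chosen with earlier results of these data known, so this count is not a result. All 12 had a lower mean in KO, with a median ratio of 0.687, beside 60 of all 119 listed genes. In 8 of the 12, KO lay below WT without overlap. The same held for 27 of the 60 listed genes with a lower mean in KO (45.0%), or of all 119 (22.7%). Those 27 include these 8. The defensin genes among the 12 lie close together on chromosome 8 and may not vary independently. The summed level of all 12, most of it from Defa24, was 3701 to 5133 RPKM in WT and 2967 to 3866 RPKM in KO. Of 4 stem cell genes only Ascl2, a Wnt-driven transcription factor of crypt stem cells, was listed, with 1.56, 3.01, 3.30 and 2.44 RPKM in WT libraries 1 to 4 and 1.66 to 1.96 RPKM in KO. Its WT libraries stood in the same order as those of Camk2b, as did those of Smarcad1, Adcy8, P2rx4 and Rtn4r. How many of the 119 genes shared this exact order was not counted. The wider split, with WT libraries 2 and 3 above WT libraries 1 and 4, held in 64 of them. Of 6 enterocyte genes only Treh was listed, with 4.24 to 7.05 RPKM in WT and 7.98 to 13.3 RPKM in KO. The part of any such difference in the levels of Camk2b and Tiam1 was not tested.

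Camk2b was 1 of 9 listed genes on chromosome 11. The nearest were Sec14l2, which ends 1.85 Mb before it and had a ratio of 1.79, and Fam161a, which starts 16.9 Mb after it and had a ratio of 1.68. Both neighbors were thus higher in KO. Tiam1 was 1 of 6 listed genes on chromosome 16, and the nearest, St3gal6, ends 31.3 Mb before it.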

How the data were processed

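RNA from whole SI tissue of 4 WT and 4 KO libraries was examined. According to the labels and methods, the authors trimmed reads with Trim Galore 0.4.1, mapped them to GRCm38 with HISAT2 2.0.1, quantified uniquely mapped reads over exons of merged transcripts in SeqMonk and kept genes with a DESeq2 FDR under 0.05. The deposited values are RPKM, 1 per gene and library. The columns of the authors' FDR and group means were not used, and 0 columns of per-sample values were left over.

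Whole reads were recovered from RPKM, span and a fitted number of mapped reads, to within 0.05 of a read. The search was checked on simulated libraries. Means, SDs, ratios, SEs of log2 differences, exact 95% Poisson intervals and profile differences (pseudocount 0.01) were computed with Python 3.11.15, pandas 2.3.3, numpy 2.4.6 and scipy 1.17.1, without a test between the groups, because the genes were selected on these libraries. Members, gene lists and rules were chosen with earlier results of these data known. Named were the members, Smarcad1, listed genes of the pathway lists, the nearest listed genes by position, profile (3 each) and ratio. Ascl2, Treh and the promoter motifs were named after values were seen. Alternatives were medians, geometric means, pseudocounts of 0.01 and 0.1, a minimum mean of 0.5 RPKM, rescaling by median ratios, and leaving out each library.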

Additional observations from a re-analysis of the deposited data

How the results depend on the processing

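Both genes kept a KO to WT ratio below 1 under every alternative run. Leaving out 1 library gave ratios of 0.165 to 0.256 for Camk2b and 0.687 to 0.789 for Tiam1, coefficients of variation for Camk2b of 38.8% to 75.3% in WT and 18.5% to 40.4% in KO, coefficients for Tiam1 of 5.35% to 10.4% in WT and 12.4% to 21.8% in KO, and a distance between the Tiam1 groups of -0.00137 to 0.00672 RPKM, negative where they overlap. The lowest Camk2b KO coefficient, 18.5%, came without KO library 2. At a pseudocount of 0.1, which exceeds every Tiam1 value, the Tiam1 ratio was 0.904, closer to 1 by construction. Rescaling opened the Tiam1 groups by 0.010 RPKM and gave 52 genes with KO entirely below WT. The groups did not overlap in 85 of 119 genes as deposited, 31.8% of them with KO below WT, in 110 after rescaling (47.3% below), and in 50 of the genes with a mean of at least 0.5 RPKM, where fewer genes remain. Of the recalculations, 81 stayed within 1 SD or, for counts, within 1.5 times, 4 moved further and 3 changed sign. When 1 library is left out, a distance between groups changes only if that library lies at its edge. Some of the 81 were therefore fixed in advance. The 3 changes of sign were all in the distance between the Tiam1 groups: after rescaling, without WT library 4 and without KO library 1. The rescaled and leave-one-out distances between groups and the rescaled coefficients were added after seeing the data.

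Depth limits the order of single Tiam1 libraries, not that of Camk2b. No paired analysis was possible because the values are descriptions that come from no test between the groups, and no source used here says that equal library numbers mark shared animals, litters or days.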

Other observations

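The WT split seen in Camk2b and Tiam1 was nearly one-sided over the table. WT libraries 2 and 3 both exceeded WT libraries 1 and 4 in 30 of the 60 genes with a lower mean in KO, with the opposite in 5, and in 34 of the 59 genes with a higher mean in KO, with the opposite in 0. WT library 1 was the lowest WT library, ties included, in 57 of the 119 genes, and WT library 4, ties not included, in 42. The listed genes took 0.879% of mapped reads in WT library 1 and 1.04% to 1.14% in WT libraries 2 to 4, and 0.822% to 0.973% in KO. The cause was not tested.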
